A study of Mus musculus with 14 samples.

Results

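Gut bacteria release acetate, the smallest of the short chain fatty acids, and the comparison described here sets mouse CD4+ T cell cultures with it against cultures without it, taken over Th17, Treg and Th1 cultures at once. All 14 arrays of the series belong to it, 7 from cultures with acetate and 7 from control cultures, and they were chosen by the C2 or control in their titles. CD4+ T cells of the spleen and of peripheral and mesenteric nodes were kept in culture for 5 days per the sample protocols, or 6 to 7 days per the series' design text, with sodium acetate at 10 mM in the treated groups. There were 3 Th17 acetate and 3 Th17 control arrays, 2 Treg acetate and 2 Treg control arrays, and 2 Th1 acetate and 2 Th1 control arrays.

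All 6 groups received IL-2. The Th17 acetate and Th17 control cultures also received TGF-b1, IL-6, IL-1b, IL-23, IL-21 and TNF-a with antibodies against IL-4 and IFN-gamma. TGF-b1 alone was added to IL-2 in the Treg acetate and Treg control cultures, and the Th1 acetate and Th1 control cultures received IL-12 with an antibody against IL-4. The protocols of the Treg and Th1 treated samples name acetone where the design text names sodium acetate. The titles say only C2, which was taken here as acetate. The labels mention no added salt for the controls, give no strain or age of mice, and leave unsaid whether the arrays of 1 group stand for different mice or cultures, so that p-values measure the spread between these arrays, which may be technical. A bulk culture does not tell less RNA per cell from fewer cells of a type.

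Values are normalised signals, that is probe set intensities brought to a common distribution over the 14 arrays. A log2 difference is the mean of log2(signal + 3) with acetate minus that in controls, worked out within each subset and then averaged with equal weight for Th17, Treg and Th1. It understates the change of weakly expressed genes. A gene was called where limma's adjusted p was under 0.05, and it was counted in the shared response where, in addition, every acetate array lay beyond every control array in the same direction in each of the 3 subsets. The trimmed mean signal of the deposited arrays ran from 53.2 to 116, and the first principal component of the normalised values, with 27.7% of the variance, put all 7 acetate arrays below 0 and all 7 control arrays above it. The signal ratio of the 3′ to the 5′ Gapdh probe sets, which goes up where RNA is degraded, was 0.992 to 1.10 on acetate arrays and 0.986 to 1.23 on control arrays, with the Treg controls highest. The signal of the 18S ribosomal RNA probe set stood at 3134 on Treg control array 1 and at 506 to 816 on the other Treg arrays. It was 2809 to 4149 on Th17 arrays, 879 and 1576 on Th1 acetate arrays, and 609 and 298 on Th1 control arrays. The part of these in the results was not tested.

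Acetate enters cells through monocarboxylate transporters and is made into acetyl-CoA, the donor of acetyl groups for lipid synthesis, for the citric acid cycle and for protein acetylation. It also binds the surface receptor FFAR2, and longer short chain fatty acids are known as inhibitors of histone deacetylases. Activated CD4+ T cells leave the resting state by losing factors such as KLF2, which maintains the genes for lymph node homing and quiescence, and by raising their metabolism and effector genes.

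Of 18193 genes, 2995 were called in the mean over subsets, which is 16.5%. The 1649 called higher with acetate made up 9.06% of genes and the 1346 called lower 7.4%. Full separation in all 3 subsets, called or not, was seen for 4.76% of genes upward and 4.27% downward. The shared response held 1505 genes, or 8.27%, with 798 higher (4.39%) and 707 lower (3.89%). The median log2 difference was 0.817 among the shared genes that were higher and -0.746 among those that were lower, and 298 and 175 of them reached a 2-fold change. Median differences of the higher genes were 0.87 in Th17 cultures, 0.81 in Treg cultures and 0.695 in Th1 cultures. Those of the lower genes were -0.742 in Th17 cultures, -0.745 in Treg cultures and -0.673 in Th1 cultures.

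Genes called in 1 subset were taken whether or not they were also called in another. Of the 130 called higher in Th1 cultures, for instance, 79 were also called higher in Th17 cultures. All were read in the arrays of the other subsets. Those arrays did not enter the difference that was tested, but they shared its normalization and its estimate of spread, which favours genes that vary little on them, so the shares below are descriptions. Of 130 genes called higher in Th1 cultures (0.715% of all genes), 93.8% were higher in Th17 cultures as well, where 50.7% of all genes were, and in 76.2% every Th17 acetate array exceeded every Th17 control array, as in 15.3% of all genes. Of 973 genes called higher in Th17 cultures (5.35%), 92.6% had the same sign in Treg cultures and 84.4% in Th1 cultures, where 51.4% and 50.7% of all genes were higher. The lowest share was that of 541 genes called higher in Treg cultures (2.97%), of which 76.5% were higher in Th1 cultures. Of 674 genes called lower in Th17 cultures (3.7%), 91.2% were lower in Treg cultures and 83.7% in Th1 cultures, where 48.6% and 49.3% of all genes were. Of 427 genes called lower in Treg cultures (2.35%), 92% were also lower in Th17 cultures and 89.9% in Th1 cultures. Read in Th1 cultures, full separation of the arrays was seen for 56.3% and 59.6% of the genes called higher and lower in Th17 cultures and for 52.7% and 72.6% of those called higher and lower in Treg cultures, where 19.7% of all genes separated upward and 20% downward. Across the 10467 genes whose higher arm reached the median probe set level, the differences of Th17 and Treg cultures correlated with r = 0.621, those of Th17 and Th1 cultures with 0.473 and those of Treg and Th1 cultures with 0.431. Genes are not independent replicates, and the arrays of a subset share 1 culture protocol, so these are descriptions. An F test of the differences between the 3 acetate effects called 57 genes, or 0.313%, of which 9 were in the shared response: H2-Q10, Batf3, Ms4a6b, Fam217b, Cd9, Gsn, Gng2, Pdlim4 and Ccl9. Those 9 kept 1 direction but differed in size. With 2 arrays a group in Treg and Th1 cultures, a difference between subsets that this test missed is not shown to be absent.

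**Figure D1:**
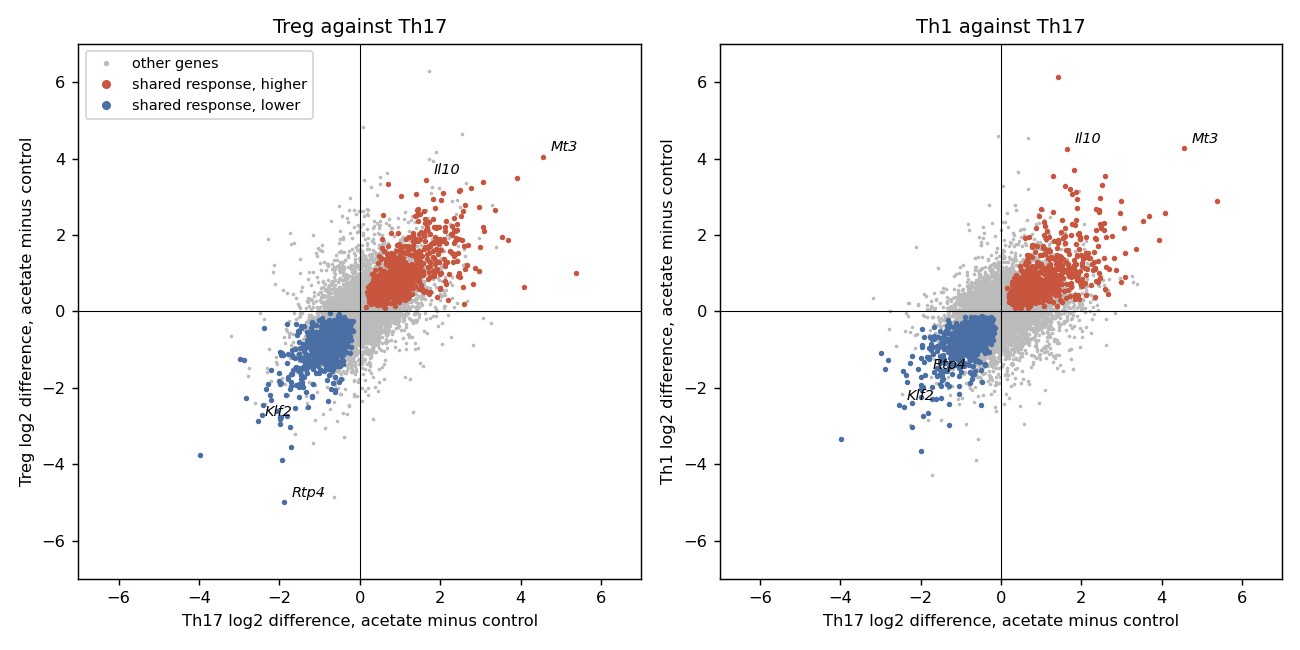
Log2 differences (acetate minus control) of 10467 genes in Treg cultures (left panel, vertical axis) and Th1 cultures (right panel, vertical axis) against those in Th17 cultures (horizontal axis), 1 point per gene. Genes of the shared response are coloured and lie by definition in the upper right (798 higher over all levels) or lower left (707 lower); Mt3 sits above 4 in all 3 subsets and Rtp4 is farthest down in Treg cultures.

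Mt3 rose most of all genes in the shared response. It encodes metallothionein 3, a small cysteine-rich protein that binds zinc and copper and is best known from neurons. Mt3 read 497, 163 and 159 on Th17 acetate arrays, against 16.8, 2.12 and 7.22 on Th17 control arrays. Mt3 in Treg cultures read 461 and 357 on Treg acetate arrays, against 25.3 and 18.7 on Treg control arrays. Mt3 in Th1 cultures read 1377 and 3452 on Th1 acetate arrays, against 103 and 117 on Th1 control arrays. Every acetate array of any subset exceeded every control array of any subset, although Th1 arrays ran higher than Th17 and Treg arrays under both conditions. The log2 difference was 4.29 ± 0.32 (SE; adjusted p = 2.86e-06), with 4.55 in Th17 cultures, 4.05 in Treg cultures and 4.28 in Th1 cultures.

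Of 16 genes for metallothioneins, zinc transporters and the metal-sensing factor MTF-1, 6 were called higher and 2 lower, against 9.06% and 7.4% of all genes, and the median difference was 0.19 where that of all genes was 0.01. The 2 lower became 1 to 3 where single arrays were left out. Mt1 and Mt2, the metallothioneins of most tissues, were abundant throughout. Mt1 ran from 5039.8 to 10238 (median 8502) on the acetate arrays, against 3039.6 to 6644 (median 4755) on the control arrays, and its log2 difference was 0.83 ± 0.13 (SE; adjusted p = 0.00076). Mt2 ran from 4492 to 7391 (median 6265) on the acetate arrays, against 1979 to 5200.5 (median 4335) on the control arrays, with a log2 difference of 0.81 ± 0.15 (SE; adjusted p = 0.00259). Neither belonged to the shared response: Mt1 was 0.48 in Th17 cultures, 1.73 in Treg cultures and 0.28 in Th1 cultures, and Mt2 was 0.27 in Th17 cultures, 1.43 in Treg cultures and 0.74 in Th1 cultures. The Mt1 probe set carries a suffix that marks probes matching more than 1 transcript. Mt4 had a mean difference of 1.77 that came with -0.07 in Th17 cultures, 0.81 in Treg cultures and 4.58 in Th1 cultures, and it was not called in an additive model (adjusted p = 0.14).

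Zinc transport moved in both directions. Slc30a1, the exporter of zinc at the cell surface, fell in all 3 subsets by a log2 difference of -1.69 ± 0.35 (SE; adjusted p = 0.00444). Its signal was 2.57 to 19.5 (median 8.39) on the acetate arrays, against 5.74 to 55.1 (median 40.6) on the control arrays, and the acetate arrays of each subset lay below its control arrays. Slc39a14, an importer of zinc and other divalent metals, rose by 1.31 ± 0.12 (SE; adjusted p = 9.59e-06) and ran from 277 to 615 (median 354) on the acetate arrays, against 84.9 to 215 (median 200) on the control arrays. Slc30a7, which loads zinc into the secretory pathway, was in the shared response as well, at 0.48, and Mtf1 did not pass (0.13, adjusted p = 0.64). As background, Mt1, Mt2 and Slc30a1 are all textbook targets of MTF-1.

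The factor MTF-1 binds metal response elements, whose core is TGCACNC or TGCGCNC. The windows below are the 250 bases upstream of the annotated start in RefSeq (build GRCm38.p6), shown because these 4 genes moved in different directions, with core matches on either strand in capitals. They lie at chr8:94152357-94152606 for Mt3, chr8:94178839-94179088 for Mt1, chr8:94172368-94172617 for Mt2 and chr1:191906531-191906780 for Slc30a1, all on the plus strand.
Mt3: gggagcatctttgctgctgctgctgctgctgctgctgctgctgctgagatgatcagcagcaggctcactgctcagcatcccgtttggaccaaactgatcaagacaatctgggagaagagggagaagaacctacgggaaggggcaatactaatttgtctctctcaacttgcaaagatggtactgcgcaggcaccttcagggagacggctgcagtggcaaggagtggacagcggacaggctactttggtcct
Mt1: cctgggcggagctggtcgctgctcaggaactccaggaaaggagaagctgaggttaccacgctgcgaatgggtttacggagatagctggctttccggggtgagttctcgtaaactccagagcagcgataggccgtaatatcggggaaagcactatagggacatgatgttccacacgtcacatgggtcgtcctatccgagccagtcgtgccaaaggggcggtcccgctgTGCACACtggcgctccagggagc
Mt2: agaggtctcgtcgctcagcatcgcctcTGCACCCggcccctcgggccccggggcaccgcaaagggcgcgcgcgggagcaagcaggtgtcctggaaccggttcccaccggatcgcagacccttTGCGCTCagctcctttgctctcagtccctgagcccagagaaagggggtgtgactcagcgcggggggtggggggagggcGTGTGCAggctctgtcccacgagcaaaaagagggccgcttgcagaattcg
Slc30a1: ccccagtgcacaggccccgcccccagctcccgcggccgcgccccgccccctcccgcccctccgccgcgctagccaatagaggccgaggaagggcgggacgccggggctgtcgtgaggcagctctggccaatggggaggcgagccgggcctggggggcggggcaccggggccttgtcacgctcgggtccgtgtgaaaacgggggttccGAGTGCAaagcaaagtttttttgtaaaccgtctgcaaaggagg
The Mt3 window held 0 matches, Mt1 1, Mt2 3 and Slc30a1 1. Such a core was present in the windows of 7 of the 14 matched genes of the zinc list and in 23.8% of the 27025 genes of the table. A match is a description of letters and not a site, and no match speaks only for this window.

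Il10, the gene of the anti-inflammatory cytokine interleukin 10, was among the largest shared rises. Il10 read 1219, 571 and 718 on Th17 acetate arrays, against 343, 213 and 216 on Th17 control arrays. Il10 in Treg cultures read 806 and 927 on Treg acetate arrays, against 76.2 and 76.6 on Treg control arrays. Il10 in Th1 cultures read 746 and 843 on Th1 acetate arrays, against 145 and 8.70 on Th1 control arrays. All 7 acetate arrays lay above all 7 control arrays, and Th1 control array 2 was far below the others. The log2 difference was 3.12 ± 0.40 (SE; adjusted p = 0.00013), with 1.65 in Th17 cultures, 3.45 in Treg cultures and 4.26 in Th1 cultures.

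**Figure D2:**
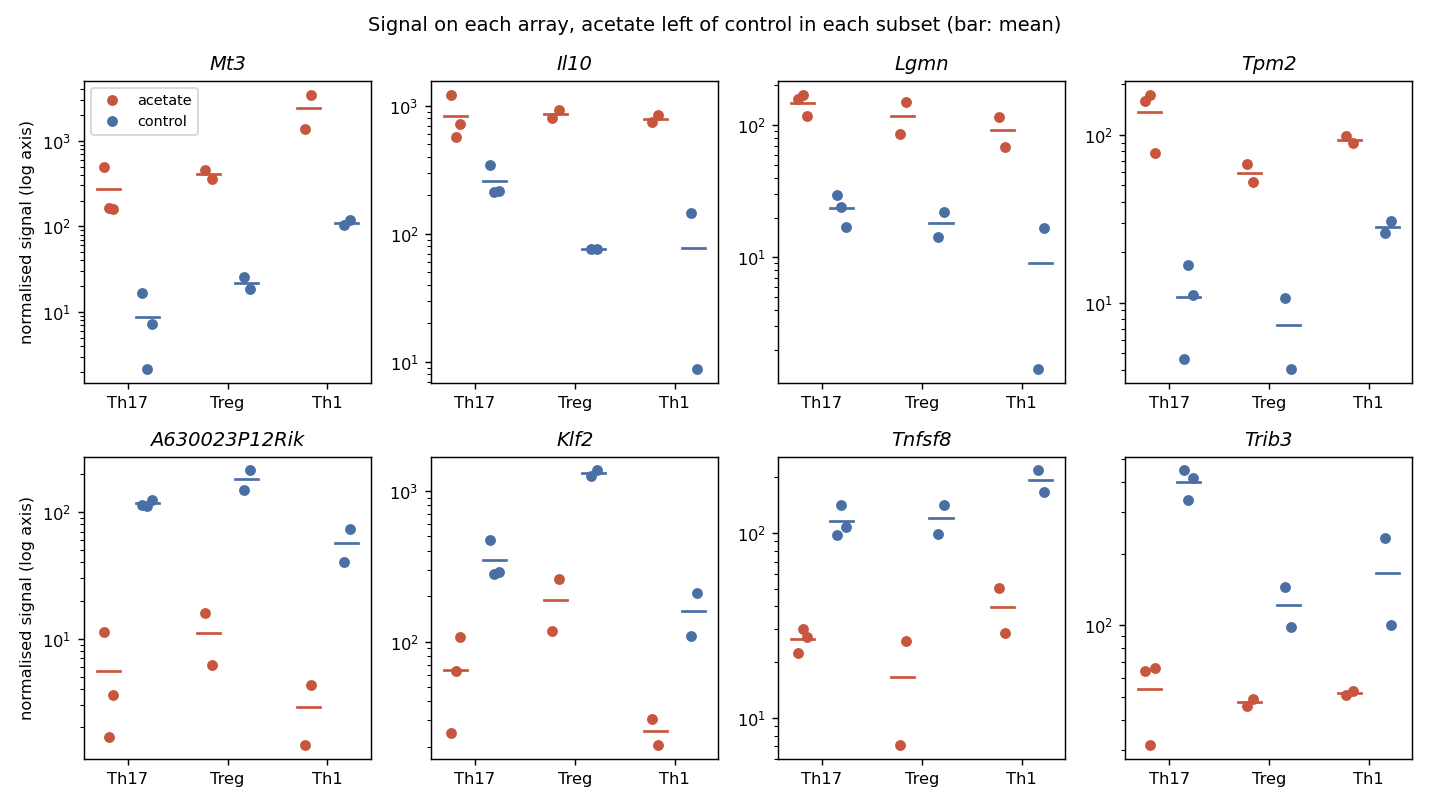
Normalised signal (log axis) of 8 genes on each array, with acetate (red points) left of control (blue points) within Th17, Treg and Th1 cultures; bars are means of 3, 2 and 2 arrays. Mt3, Il10, Lgmn and Tpm2 (top row) lie higher with acetate in every subset, and A630023P12Rik, Klf2, Tnfsf8 and Trib3 (bottom row) lower.

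Apart from Mt3 and Il10, 13 genes made up the largest shared rises, with mean log2 differences of 3.36 for Ccl9 down to 2.57 for Cbr3. They were Ccl9, a CC chemokine; Prtn3, the serine protease proteinase 3 of neutrophil granules; Pdlim4, an actin-associated protein; Lgmn, the lysosomal protease legumain; Cdh17, an intestinal cadherin; Gzme and Gzmk, granule proteases; Maged1, of the MAGE family; Atp6v0d2, a subunit of the vacuolar proton pump; Gstm5, a glutathione S-transferase; Npl, which cleaves sialic acid; Moxd1, of the monooxygenase family; and Cbr3, a carbonyl reductase. Ccl9 and Pdlim4 were uneven, with 1.42 in Th17 cultures, 2.53 in Treg cultures and 6.13 in Th1 cultures for Ccl9 and 5.37 in Th17 cultures, 0.99 in Treg cultures and 2.88 in Th1 cultures for Pdlim4. Cdh17 was even, with 2.97 in Th17 cultures, 2.72 in Treg cultures and 2.56 in Th1 cultures and signals of 48.9 to 149 (median 82.5) on the acetate arrays, against 0.373 to 24.4 (median 10.3) on the control arrays. Moxd1 and Cbr3 were weakly expressed, at a median of 17.0 and 41.0 with acetate and of 1.22 and 3.89 in controls. Gzme is read by a probe set whose suffix marks cross-hybridisation, and granzymes C to G are near copies of each other, so their signals cannot be separated.

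**Figure D3:**
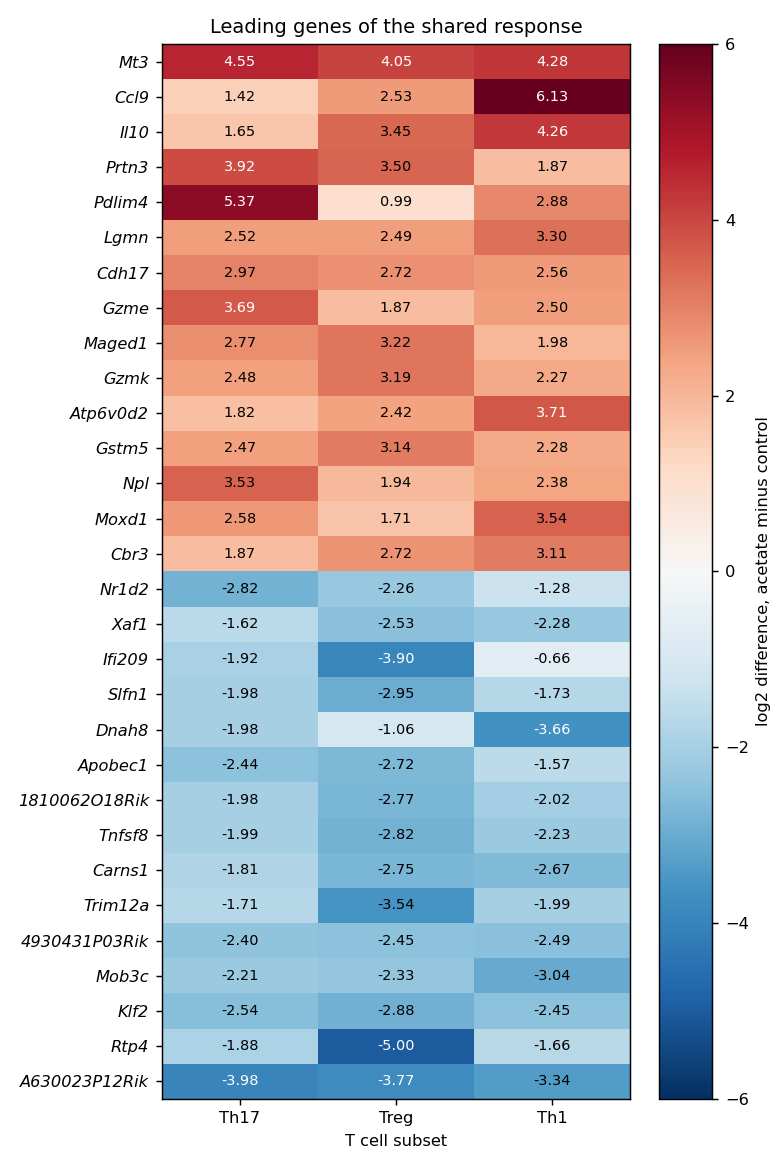
Log2 difference (acetate minus control) of the 15 largest shared rises and 15 largest shared falls (rows) in Th17, Treg and Th1 cultures (columns), coloured from blue (lower with acetate) to red (higher). All 90 cells have the sign of their row's mean by definition of the shared response. The widest spreads are those of Ccl9 (1.42 in Th17 cultures, 2.53 in Treg cultures and 6.13 in Th1 cultures) and Pdlim4 (5.37 in Th17 cultures, 0.99 in Treg cultures and 2.88 in Th1 cultures).

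A different count asks for a call in each subset by itself, whether or not the arrays separated, and 50 genes higher (0.275%) and 38 lower (0.209%) met it. It is not contained in the shared response, since Prdm1 met it but did not separate in every subset. Among the 15 largest shared rises, Mt3, Lgmn, Atp6v0d2, Gstm5, Npl and Cbr3 met it. Others, chosen here after their values were seen, were Lmna, which encodes the nuclear lamins A and C (2.50), and Maoa, a monoamine oxidase (1.93). Among the falls besides A630023P12Rik, Klf2 and Tnfsf8 were Cd27, a costimulatory receptor (-2.06), Plk2, a polo-like kinase (-2.04), Il16, a chemoattractant cytokine (-1.49), and Ikbke, a kinase of innate signalling (-1.78), likewise chosen after their values were seen.

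Lysosomal genes, which encode proteases, hydrolases and the proton pump that acidifies the organelle, rose more often than they fell. Of 27 measured, 11 were called higher and 3 lower, against 9.06% and 7.4% of all genes, so that the count lower is near that share. The shared response held 7 higher and 1 lower, against 4.39% and 3.89% of all genes, and the list's median was 0.185. Lgmn ran from 68.2 to 170.2 (median 117) on the acetate arrays, against 1.41 to 29.6 (median 16.8) on the control arrays, which do not overlap, and rose by 2.77 ± 0.29 (SE; adjusted p = 2.99e-05). Atp6v0d2 ran from 34.9 to 341 (median 126) on the acetate arrays, against 4.51 to 44.8 (median 26.1) on the control arrays. Its acetate arrays exceeded the control arrays within each subset though not across subsets, and the difference was 2.65 ± 0.15 (SE; adjusted p = 3.05e-07), with 1.82 in Th17 cultures, 2.42 in Treg cultures and 3.71 in Th1 cultures. Gla, the alpha-galactosidase deficient in Fabry disease, rose by 1.72 ± 0.22 (SE; adjusted p = 0.00012). Other pump subunits and cathepsins in the shared response were Atp6v1a (0.92), Atp6v1c1 (0.46), Ctsz (0.72) and Ctsl (0.99), and Ctsl lost its call where all its probe sets were averaged (adjusted p = 0.27). The 3 lower genes, Ctse, Hexa and Lamp1, all lost their calls without Treg acetate array 1, which left 0 lower. The count lower was 1 without Treg acetate array 2, either Treg control array, Th17 control array 1 or 3, or Th1 acetate array 2.

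Genes of the citric acid cycle and of mitochondrial fatty acid oxidation, routes that supply and burn acetyl-CoA, were higher in part, with a list median above 0 in every subset. Of 31 measured, 16 were called higher and 0 lower, against 9.06% and 7.4% of all genes, and 11 of the 16 were in the shared response. The median difference of all 31 was 0.375, with 0.493 in Th17 cultures, 0.249 in Treg cultures and 0.356 in Th1 cultures. Etfb, the beta subunit of the flavoprotein that takes electrons from acyl-CoA dehydrogenases, had the largest difference of the list. Etfb read 1505, 841 and 725 on Th17 acetate arrays, against 545, 457 and 512 on Th17 control arrays. Etfb in Treg cultures read 1273 and 1135 on Treg acetate arrays, against 579 and 605 on Treg control arrays. Etfb in Th1 cultures read 1198 and 1446 on Th1 acetate arrays, against 653 and 506 on Th1 control arrays. The 7 acetate arrays lay above all 7 control arrays, and the log2 difference was 1.05 ± 0.14 (SE; adjusted p = 0.000221). Suclg1, a subunit of succinyl-CoA ligase, had nearly equal differences, with 0.73 in Th17 cultures, 0.77 in Treg cultures and 0.76 in Th1 cultures and signals of 476 to 742 (median 595) on the acetate arrays, against 286 to 412 (median 375) on the control arrays.

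Along the cycle, the shared response included Cs, the citrate synthase that condenses acetyl-CoA with oxaloacetate (0.69 ± 0.10), Idh2, the mitochondrial NADP-linked isocitrate dehydrogenase (0.74 ± 0.12), Suclg1 (0.75 ± 0.09), Sdhc of succinate dehydrogenase (0.60 ± 0.09) and Fh1, fumarase (0.69 ± 0.14), all with SE. The mainly cytosolic enzymes Idh1 (1.03 ± 0.23) and Mdh1 (0.77 ± 0.10), were in it too, though Mdh1 missed the threshold where its probe sets were averaged (adjusted p = 0.06). In fatty acid oxidation the shared genes were Acads (0.68), Etfa (0.63), Etfb and Hadha (0.30). The 3 subunits of the NAD-linked isocitrate dehydrogenase did not pass, at 0.44 for Idh3a, -0.04 for Idh3b and -0.01 for Idh3g, nor did Ogdh (0.08), Sdha (-0.26), Sdhb (0.06) or Cpt1a (0.37), the carnitine transferase that admits fatty acids to mitochondria.

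Genes of glutathione metabolism moved both ways. Among 33 genes of glutathione metabolism and the antioxidant programme of the factor NRF2, 11 were called higher and 5 lower. Of all genes, 9.06% were called higher and 7.4% lower. The list's median was 0.239. Several glutathione S-transferases rose: Gstm5 by 2.63 ± 0.26 (SE; adjusted p = 2.09e-05), Gstt3 by 1.84 ± 0.20 (SE; adjusted p = 3.48e-05), Gstm1 by 1.74 ± 0.16 (SE; adjusted p = 1.02e-05) and Mgst3 by 1.42 ± 0.15 (SE), all in the shared response. Others of this enzyme group fell, Mgst2 by a log2 difference of -1.38 ± 0.21 (SE; adjusted p = 0.000511) and Gsto1 by -0.47. Gstm5 ran from 76.8 to 154 (median 131) on the acetate arrays, against 1.32 to 31.1 (median 22.1) on the control arrays, with no overlap. Members of the Gstm family are close copies, and the Gstm1 probe set is marked for cross-hybridisation. The genes of the enzyme that starts glutathione synthesis fell, Gclc by a log2 difference of -0.74 and Gclm by -0.56, as did Nfe2l2, which encodes NRF2 (-0.75). Nqo1, a standard NRF2 target, did not pass (-0.01, adjusted p = 0.985), while Txnrd1 (0.76) and Taldo1 (0.72) were in the shared response.

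Actin regulators and heat shock proteins gave further rises. Of 22 genes for actin-binding and related proteins, 9 were called higher and 0 lower, against 9.06% and 7.4% of all genes. The shared response held 5 of them, and the list's median was 0.356. Tpm2, a tropomyosin of muscle, ran from 52.2 to 173 (median 89.5) on the acetate arrays, against 4.01 to 30.5 (median 11.1) on the control arrays, which do not overlap, and rose by 2.55 ± 0.25 (SE; adjusted p = 1.99e-05). Gsn, which severs actin filaments, ran from 529.6 to 759 (median 644) on the acetate arrays, against 78.3 to 332 (median 193) on the control arrays and rose by 1.85 ± 0.11 (SE; adjusted p = 3.05e-07), with 2.70 in Th17 cultures, 1.74 in Treg cultures and 1.10 in Th1 cultures. Fscn1, which bundles filaments, had a mean of 2.28 but 3.29 in Th17 cultures, 2.78 in Treg cultures and 0.77 in Th1 cultures and was not in the shared response. The other tropomyosins Tpm1, Tpm3 and Tpm4 did not pass, at 0.21, -0.08 and -0.25. Of 13 heat shock chaperones, 4 were called higher, all in the shared response, and 0 lower, beside the same shares of all genes. Hspb1, a small heat shock protein, ran from 115 to 193 (median 138) on the acetate arrays, against 25.3 to 70.5 (median 41.7) on the control arrays and rose by 1.72 ± 0.16 (SE; adjusted p = 1.44e-05). Hspa1b rose by 1.85 ± 0.30 (SE; adjusted p = 0.000897) and its cochaperone Bag3 by 1.10 ± 0.17 (SE; adjusted p = 0.000519). Hspa1b and Hspa1a are near copies and Hspa1a did not pass (0.53, adjusted p = 0.3), so which of them the signal stands for is uncertain. The large constitutive chaperones Hspa8, Hsp90aa1 and Hspd1 did not pass, with -0.11, 0.13 and 0.00.

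**Figure D4:**
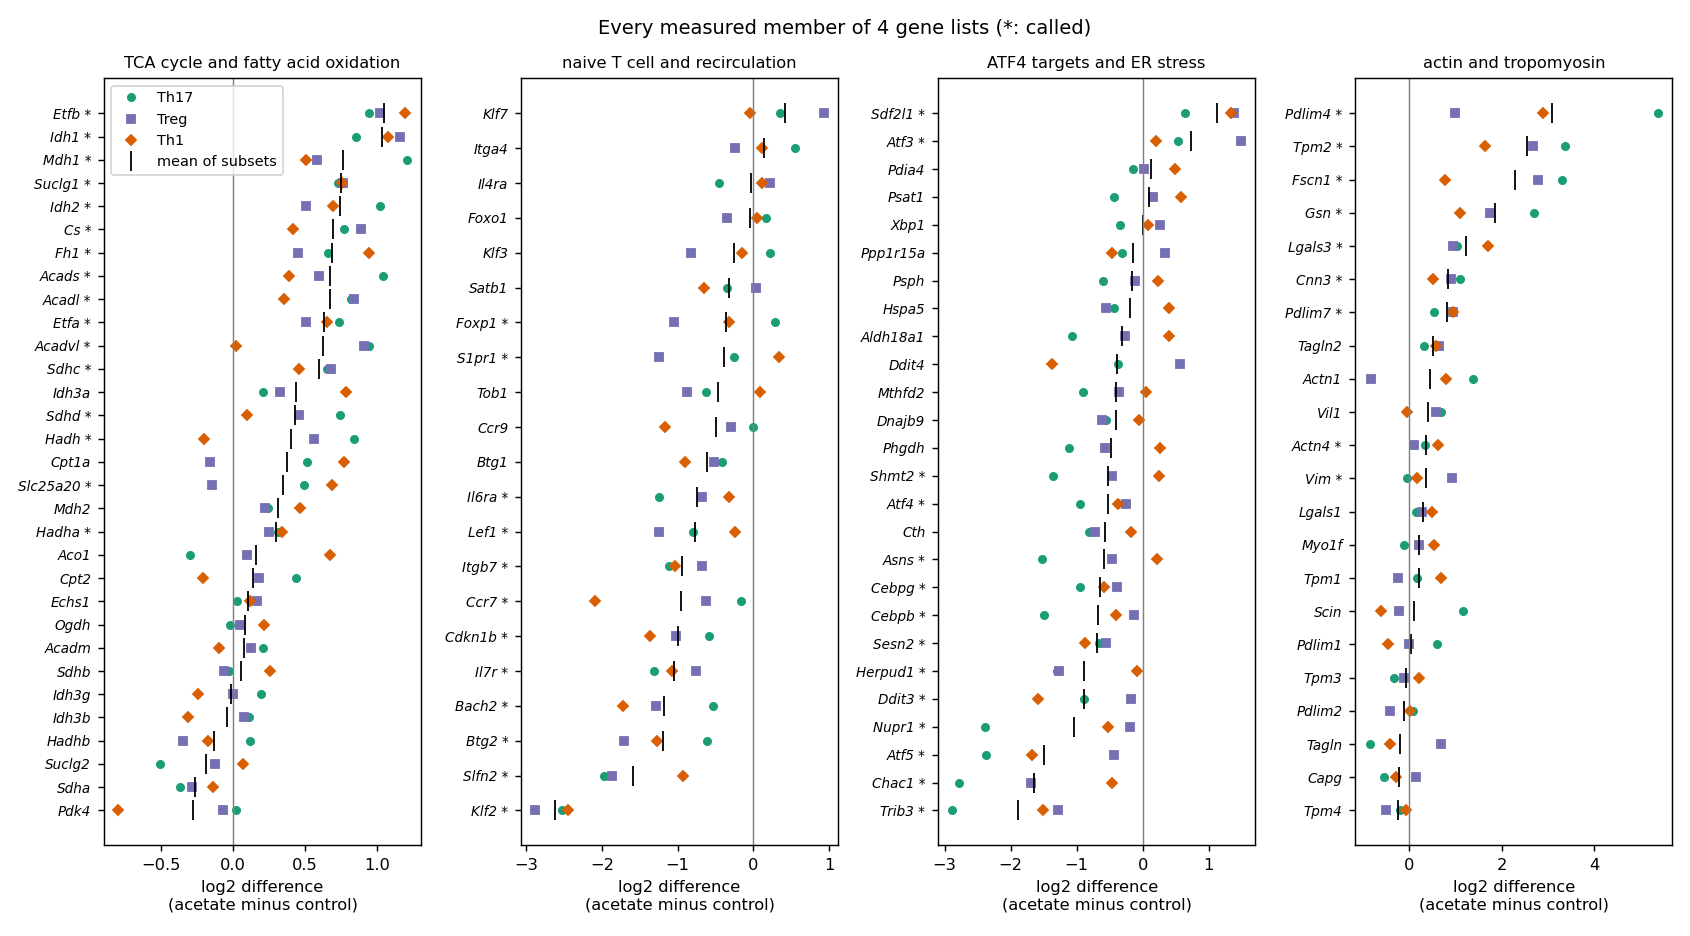
Log2 difference (acetate minus control, horizontal axis) of every measured member of 4 gene lists, in Th17 (circles), Treg (squares) and Th1 cultures (diamonds), with the equal-weight mean as a black tick; an asterisk marks genes called in the mean. Of 31 citric acid cycle and fatty acid oxidation genes 16 were called higher, of 21 naive cell genes 12 lower, of 26 ATF4 and endoplasmic reticulum stress genes 12 lower and 2 higher, and of 22 actin genes 9 higher. The shares of all genes called were 9.06% higher and 7.4% lower.

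The largest shared fall was that of A630023P12Rik, a gene known by its clone name only. A630023P12Rik read 11.3, 1.67 and 3.58 on Th17 acetate arrays, against 114, 111 and 125 on Th17 control arrays. A630023P12Rik in Treg cultures read 16.1 and 6.2 on Treg acetate arrays, against 149 and 213 on Treg control arrays. A630023P12Rik in Th1 cultures read 1.44 and 4.33 on Th1 acetate arrays, against 40.5 and 73.4 on Th1 control arrays. All acetate arrays were below all control arrays, most of them close to the floor of the signal scale. The log2 difference was -3.70 ± 0.28 (SE; adjusted p = 2.86e-06), with -3.98 in Th17 cultures, -3.77 in Treg cultures and -3.34 in Th1 cultures.

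Klf2 encodes a zinc finger factor that keeps T cells quiescent and drives the receptors for leaving tissue and entering lymph nodes. Klf2 read 24.9, 63.8 and 106 on Th17 acetate arrays, against 475, 281 and 289.5 on Th17 control arrays. Klf2 in Treg cultures read 117 and 262 on Treg acetate arrays, against 1253 and 1363 on Treg control arrays. Klf2 in Th1 cultures read 30.7 and 20.5 on Th1 acetate arrays, against 109 and 209 on Th1 control arrays. Within each subset all acetate arrays were lower, but the subsets differed in level, so that Treg acetate arrays overlapped Th1 control arrays. The log2 difference was -2.62 ± 0.28 (SE; adjusted p = 3.43e-05), with -2.54 in Th17 cultures, -2.88 in Treg cultures and -2.45 in Th1 cultures.

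Other genes of naive and recirculating T cells were lower as well. Of 21 measured, 12 were called lower and 0 higher, against 7.4% and 9.06% of all genes, and 5 of the 12 were in the shared response. The median was -0.615, with -0.454 in Th17 cultures, -0.756 in Treg cultures and -0.657 in Th1 cultures. The shared falls besides Klf2 were Slfn2, a quiescence factor (-1.59 ± 0.21), Btg2, an antiproliferative factor (-1.20 ± 0.15), Il7r, the interleukin 7 receptor (-1.05 ± 0.19), and Itgb7, the beta 7 integrin of gut homing (-0.95 ± 0.20), with SE. Btg2 ran from 179 to 359 (median 269) on the acetate arrays, against 379 to 1093 (median 519.7) on the control arrays, with no overlap. Transcription factors Bach2 (-1.18, adjusted p = 0.00685) and Lef1 (-0.77, adjusted p = 0.00536) and the cell cycle inhibitor Cdkn1b (-0.99, adjusted p = 0.00841) were called but did not separate in all subsets. The KLF2 target S1pr1, which lets cells leave lymph nodes, averaged -0.39, with -0.25 in Th17 cultures, -1.25 in Treg cultures and 0.33 in Th1 cultures, and Ccr7, the lymph node homing receptor, -0.96, with -0.16 in Th17 cultures, -0.63 in Treg cultures and -2.09 in Th1 cultures. Foxo1 (-0.05, adjusted p = 0.889), which maintains Klf2, did not pass.

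The Gimap genes, a cluster of GTPases for lymphocyte survival, were lower in most members. Of 8 measured, 6 were called lower and 0 higher, against 7.4% and 9.06% of all genes. The shared response held 4 of the 6, and the list's median was -0.725. Gimap3 read 382, 409 and 718 on Th17 acetate arrays, against 1314, 1213 and 1490.5 on Th17 control arrays. Gimap3 in Treg cultures read 829 and 833 on Treg acetate arrays, against 2289 and 2448 on Treg control arrays. Gimap3 in Th1 cultures read 848 and 398 on Th1 acetate arrays, against 1648 and 2161 on Th1 control arrays. The acetate arrays were lower throughout, and the log2 difference was -1.55 ± 0.17 (SE; adjusted p = 4.12e-05). Gimap5 (-1.0), Gimap8 (-0.92) and Gimap6 (-0.76) completed the shared falls, and Gimap5 and Gimap8 also kept all acetate arrays below all control arrays. Of 7 Schlafen genes, which restrain proliferation, 3 were called lower and 0 higher, beside the same shares of all genes. Slfn1 had a log2 difference of -2.22 ± 0.22 (SE; adjusted p = 1.97e-05) and Slfn8 of -1.58 ± 0.29 (SE), without full separation for Slfn8, and Slfn2 was the third.

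**Figure D5:**
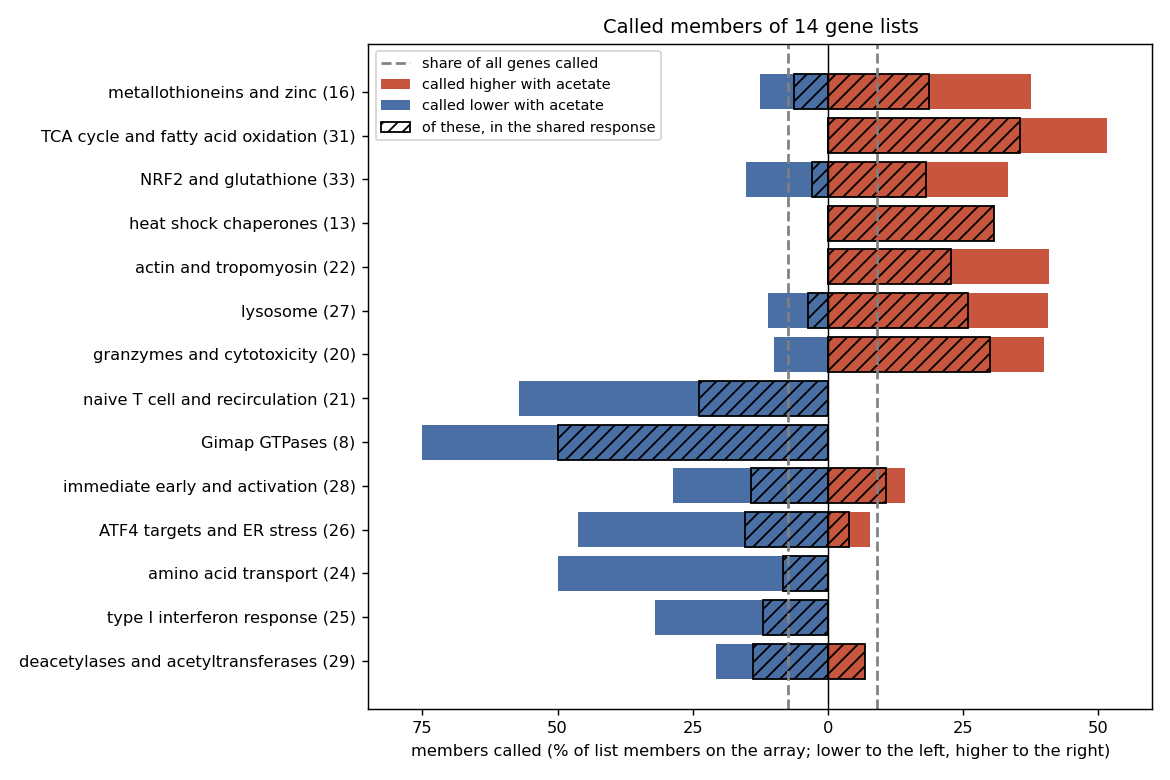
Share of measured members (percent) called lower (blue, to the left) and higher (red, to the right) with acetate in 14 gene lists, with the number measured in brackets; hatching marks members of the shared response, and dashed lines the shares of all genes called lower (7.4%) and higher (9.06%). Citric acid cycle genes reach farthest to the right and Gimap genes farthest to the left.

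Besides A630023P12Rik, Klf2 and Slfn1, the 15 largest shared falls held several weakly expressed genes. Tnfsf8, the CD30 ligand, ran from 7.09 to 50.5 (median 27.3) on the acetate arrays, against 97.1 to 218 (median 141) on the control arrays, without overlap, and fell by a log2 difference of -2.35 ± 0.22 (SE; adjusted p = 1.63e-05). Carns1, the carnosine synthase, ran from 9.64 to 30.0 (median 16.0) on the acetate arrays, against 64.6 to 146 (median 85.9) on the control arrays and had -2.41 ± 0.18 (SE; adjusted p = 2.90e-06). Both were called in each subset. Apobec1, a cytidine deaminase that edits RNA (-2.24), Mob3c, a MOB family kinase activator (-2.53), Dnah8, an axonemal dynein (-2.23), and Nr1d2, the clock repressor REV-ERB beta (-2.12), were of this size too. The unnamed clones 4930431P03Rik (-2.45) and 1810062O18Rik (-2.26) also belonged to them. The 4 remaining genes, Rtp4, Trim12a, Ifi209 and Xaf1, are known to be induced by interferons or belong to families that are.

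Interferon-linked genes fell unevenly. Rtp4 had the second largest shared fall, at -2.85 ± 0.30 (SE; adjusted p = 3.19e-05), with -1.88 in Th17 cultures, -5.00 in Treg cultures and -1.66 in Th1 cultures. Rtp4 was weakly expressed, with a median signal of 0.803 and a highest of 7.51 on the acetate arrays. On the control arrays its median was 11.5 and its highest 305. All its acetate signals and its control median thus lay under the median probe set level of 13.1. Xaf1, which antagonises the apoptosis inhibitor XIAP, had -2.14 ± 0.25 (SE; adjusted p = 6.99e-05) and was more even, with -1.62 in Th17 cultures, -2.53 in Treg cultures and -2.28 in Th1 cultures. Of 25 genes of the type I interferon response, 8 were called lower and 0 higher, against 7.4% and 9.06% of all genes. But 3 were in the shared response: Rtp4 and the factors Irf1 (-0.92) and Irf9 (-0.90). The list's median was -0.505 in the mean, yet 0.329 in Th17 cultures, -1.41 in Treg cultures and -0.405 in Th1 cultures. The classic targets Ifit1, Ifit3, Mx1 and Usp18 did not pass in the mean, with -0.87, -1.0, -0.74 and 0.44. Of 8 interferon-inducible GTPases, 5 were called lower and Gbp2 alone was in the shared response, at -1.62 ± 0.29 (SE; adjusted p = 0.00148), read by a probe set marked for cross-hybridisation.

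Targets of ATF4, the factor that raises amino acid supply under stress, were lower in part. Of 26 genes of the ATF4 and endoplasmic reticulum stress programme, 12 were called lower and 2 higher, against 7.4% and 9.06% of all genes. The count higher is near that share, and 4 lower and 1 higher were in the shared response. Trib3, a pseudokinase induced by ATF4, read 64.1, 31.3 and 66.2 on Th17 acetate arrays, against 448, 335 and 416 on Th17 control arrays. Trib3 in Treg cultures read 45.8 and 49.0 on Treg acetate arrays, against 145 and 98.4 on Treg control arrays. Trib3 in Th1 cultures read 50.9 and 52.9 on Th1 acetate arrays, against 233 and 101 on Th1 control arrays. All acetate arrays were below all control arrays, and the log2 difference was -1.89 ± 0.20 (SE; adjusted p = 3.43e-05), with -2.88 in Th17 cultures, -1.28 in Treg cultures and -1.51 in Th1 cultures. Atf5, a stress factor (-1.49 ± 0.19, SE, adjusted p = 0.000116), Cebpg (-0.64) and Atf4 itself (-0.53) were the other shared falls. Sdf2l1, a chaperone partner of the endoplasmic reticulum, was the shared rise, at 1.12 ± 0.15 (SE; adjusted p = 0.000172). The list's median was -0.5, with -0.894 in Th17 cultures, -0.317 in Treg cultures and -0.0665 in Th1 cultures, and that difference between subsets was not tested for the list.

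Chac1, which degrades glutathione and is an ATF4 target, had a mean of -1.65 ± 0.28 (SE; adjusted p = 0.00119) but -2.78 in Th17 cultures, -1.69 in Treg cultures and -0.47 in Th1 cultures. Asns, the asparagine synthetase, was called at -0.59, with -1.52 in Th17 cultures, -0.47 in Treg cultures and 0.21 in Th1 cultures, and is named here after its values were seen because its promoter carries the amino acid response element, TGATGNAAN. The windows of 250 bases upstream of the start of Chac1 (chr2:119350992-119351241, plus strand) and Asns (chr6:7693210-7693459, minus strand) in GRCm38.p6 show it in capitals, on either strand, beside that of Trib3 (chr2:152344061-152344310, minus strand), which held 0 matches.
Trib3: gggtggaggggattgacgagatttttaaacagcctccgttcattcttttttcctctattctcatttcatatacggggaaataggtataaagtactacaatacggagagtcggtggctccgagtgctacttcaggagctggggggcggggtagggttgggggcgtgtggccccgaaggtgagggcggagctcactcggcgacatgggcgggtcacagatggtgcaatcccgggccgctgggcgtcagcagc
Chac1: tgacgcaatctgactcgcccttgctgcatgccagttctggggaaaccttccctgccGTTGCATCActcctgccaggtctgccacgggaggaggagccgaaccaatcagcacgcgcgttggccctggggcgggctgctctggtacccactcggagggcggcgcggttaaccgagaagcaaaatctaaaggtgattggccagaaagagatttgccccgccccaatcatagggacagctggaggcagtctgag
Asns: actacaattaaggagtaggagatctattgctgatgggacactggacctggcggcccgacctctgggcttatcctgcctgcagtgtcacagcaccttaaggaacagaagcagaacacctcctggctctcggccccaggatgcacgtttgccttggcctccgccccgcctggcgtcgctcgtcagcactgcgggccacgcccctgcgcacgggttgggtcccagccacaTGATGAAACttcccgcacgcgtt
The element was present in 6 of 26 matched genes of this list (23.1%), namely Asns, Atf3, Chac1, Herpud1, Nupr1 and Pycr1, and in 3.89% of all genes of the table. Of those 6, Asns, Chac1, Herpud1 and Nupr1 were called lower and Atf3 higher (0.74), and Pycr1 had no probe set of its own.

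Amino acid transporters and aminoacyl-tRNA synthetases supply protein synthesis. Of 24 measured, 12 were called lower and 0 higher, against 7.4% and 9.06% of all genes, but 2 were in the shared response. These were Slc6a9, a glycine transporter (-1.48 ± 0.20, SE, with -1.67 in Th17 cultures, -1.20 in Treg cultures and -1.59 in Th1 cultures), and Slc38a2, a neutral amino acid transporter (-0.76). Slc1a5, the glutamine transporter, averaged -1.06, with -1.41 in Th17 cultures, -1.42 in Treg cultures and -0.36 in Th1 cultures. Medians over the list were -0.963 in Th17 cultures, -0.287 in Treg cultures and 0.0827 in Th1 cultures.

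Of 20 genes of cytotoxic granules and killing, 8 were called higher and 2 lower, against 9.06% and 7.4% of all genes. The count lower is near that share. Of the 8, 6 were in the shared response, and the list's median was 0.689. Gzma ran from 852 to 9985 (median 2586) on the acetate arrays, against 181 to 4644 (median 373) on the control arrays, with overlap between subsets and none within them, and rose by 2.15 ± 0.24 (SE; adjusted p = 4.94e-05). Gzmk ran from 6.36 to 394 (median 97.1) on the acetate arrays, against 0.963 to 47.5 (median 8.64) on the control arrays and rose by 2.65 ± 0.43 (SE; adjusted p = 0.000871). Prf1, the pore protein perforin (1.76), and Gzmb (1.12) were in the shared response with unequal sizes, at 1.29 in Th17 cultures, 0.45 in Treg cultures and 3.55 in Th1 cultures for Prf1. The 2 lower genes were Ctsw and Lamp1, and the count lower was 0 without Treg acetate array 1 and without quantile normalization.

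Among 19 cytokine genes, 5 were called higher and 2 lower, against 9.06% and 7.4% of all genes, so that the count lower is near that share. Shared members were Il10, Il17a and Lta, which rose, and Ltb, which fell. Without Th1 control array 1 the count higher was 8. Il17a, the signature cytokine of Th17 cells, averaged 1.45, with 2.67 in Th17 cultures, 1.22 in Treg cultures and 0.45 in Th1 cultures. Il17a read 4184, 5370.2 and 3126 on Th17 acetate arrays, against 713, 637 and 597 on Th17 control arrays. Il17a in Treg cultures read 10.5 and 15.8 on Treg acetate arrays, against 1.40 and 7.55 on Treg control arrays. Il17a in Th1 cultures read 13.5 and 12.6 on Th1 acetate arrays, against 6.76 and 11.2 on Th1 control arrays. Its Treg and Th1 signals were near or below the median probe set level of 13.1 under both conditions. Among 24 chemokine and receptor genes, Ccl9, Ccl5 and Cxcr5 were shared rises: Cxcr5, the receptor for entry into follicles, by 1.77 ± 0.19 (SE; adjusted p = 4.03e-05), and Ccl5 by 2.43 ± 0.40 (SE; adjusted p = 0.000844) with 4.08 in Th17 cultures, 0.64 in Treg cultures and 2.56 in Th1 cultures. Of the 24, 5 were called higher, a count that was 3 without Treg acetate array 1, Treg control array 2 or Th1 control array 2, and 3 were called lower. Entpd1, the ectoenzyme CD39 that breaks down extracellular ATP, was even, with 1.40 in Th17 cultures, 1.41 in Treg cultures and 1.47 in Th1 cultures, and rose by 1.43 ± 0.19 (SE; adjusted p = 0.000213).

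Of the lineage factors, Tbx21, the Th1 factor T-bet, did not pass (0.63, adjusted p = 0.16), and neither did Ifng (1.28, adjusted p = 0.146) or Il2 (0.22, adjusted p = 0.845). Foxp3, the Treg factor, averaged -1.61 ± 0.20 (SE; adjusted p = 0.000121), with -2.36 in Th17 cultures, -2.43 in Treg cultures and -0.03 in Th1 cultures. Gata3, the Th2 factor, averaged -1.24 ± 0.24 (SE; adjusted p = 0.00273), with -1.33 in Th17 cultures, -1.37 in Treg cultures and -1.03 in Th1 cultures, without full separation of the arrays. Ikzf4, the Treg-linked factor Eos, was a shared fall (-1.22 ± 0.21, SE), and Batf, an AP-1 family factor needed by Th17 cells, a shared rise (0.66 ± 0.11, SE), with 0.68 in Th17 cultures, 0.64 in Treg cultures and 0.65 in Th1 cultures. Of 12 Treg markers 6 were called lower and 1 higher, of 9 Th17 markers 3 were called higher and 1 lower, of 11 Th1 markers 2 were called higher and 0 lower, of 8 Th2 markers 1 was called lower and 0 higher, and of 9 follicular helper markers 2 were called higher and 1 lower. Among all genes 9.06% were called higher and 7.4% lower, so that 1 called member in lists of this length is near the share of all genes.

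Immediate early genes, which antigen receptor signals switch on within minutes, were lower more often. Of 28 genes of early activation, 8 were called lower and 4 higher, against 7.4% and 9.06% of all genes. The shared response held 4 lower and 3 higher. Nr4a1, the nuclear receptor Nur77 that reports receptor signalling, ran from 152 to 405 (median 242) on the acetate arrays, against 448 to 654 (median 547) on the control arrays, without overlap, and fell by a log2 difference of -1.08 ± 0.17 (SE; adjusted p = 0.000742). Its relative Nr4a3 had -1.84 ± 0.14 (SE; adjusted p = 2.90e-06), and with probe sets averaged its adjusted p was 0.052. Ier3, an early response gene, went the other way, at 1.24 ± 0.15 (SE; adjusted p = 7.34e-05). Feedback genes of interleukin 2 and STAT5 signalling also fell, with log2 differences of -0.89 ± 0.12 for Socs1, -0.66 ± 0.12 for Pim1 and -0.88 ± 0.18 for Socs2 (SE), all in the shared response.

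Genes for survival and death were split. Bbc3, the death inducer PUMA, ran from 42.9 to 79.1 (median 58.4) on the acetate arrays, against 93.3 to 198 (median 173) on the control arrays, without overlap, and fell by a log2 difference of -1.40 ± 0.17 (SE; adjusted p = 9.91e-05). Mcl1, a survival member, had -0.93 ± 0.14 (SE; adjusted p = 0.00037), and Bcl2, another, averaged -0.92 ± 0.22 (SE) with -1.31 in Th17 cultures, 0.27 in Treg cultures and -1.72 in Th1 cultures. Bik and Pmaip1, which promote death, were shared rises, at 0.96 and 0.63. Of 13 Bcl2 family genes 5 were called higher and 3 lower, against 9.06% and 7.4% of all genes. The 5 became 3 without Treg control array 2 or Th1 control array 2, and 1 without quantile normalization.

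Of 29 genes for enzymes that write and erase protein acetylation, 6 were called lower and 2 higher, against 7.4% and 9.06% of all genes, and 4 lower and 2 higher were in the shared response. Crebbp, the acetyltransferase CBP, read 87.3, 105 and 92.9 on Th17 acetate arrays, against 232, 292 and 273 on Th17 control arrays. Crebbp in Treg cultures read 67.9 and 92.2 on Treg acetate arrays, against 289.9 and 239 on Treg control arrays. Crebbp in Th1 cultures read 98.6 and 92.1 on Th1 acetate arrays, against 172 and 178 on Th1 control arrays. All acetate arrays were below all control arrays, at -1.33 ± 0.11 (SE; adjusted p = 5.13e-06). Kat2b, the acetyltransferase PCAF (-1.18 ± 0.15, SE, adjusted p = 0.000151), Kat6a (-0.64) and the NAD-dependent deacetylase Sirt1 (-1.30 ± 0.21, SE, adjusted p = 0.000708) fell as well. Hdac1 (0.41) and the mainly cytosolic deacetylase Sirt2 (0.66) rose. Ep300 (-0.26, adjusted p = 0.253), the close relative of Crebbp, and Hdac2 and Hdac3 (-0.09 and 0.07) did not pass.

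The genes that take up and activate acetate gave no shared rise. Of 17, 4 were called higher and 1 lower, against 9.06% and 7.4% of all genes, so that the count lower is near that share. The lower one, Fasn, was the single member in the shared response. The count of 4 became 2 without Treg acetate array 2 or Th1 acetate array 1, and 1 without quantile normalization. Acss2, the cytosolic acetyl-CoA synthetase, averaged 0.28 (adjusted p = 0.346), its mitochondrial relative Acss1 -0.43 (adjusted p = 0.194), and the transporter Slc16a1 -0.34 (adjusted p = 0.154). Ffar2, the acetate receptor, was called at 0.83 (adjusted p = 0.0217) through Treg cultures, with 0.20 in Th17 cultures, 2.65 in Treg cultures and -0.36 in Th1 cultures, and lost the call without Treg acetate array 2 (adjusted p = 0.085), Treg control array 1 (0.076), Th1 acetate array 1 (0.055) or Th1 control array 2 (0.06). Fasn, the fatty acid synthase, fell by a log2 difference of -0.80 ± 0.14 (SE; adjusted p = 0.00117) and ran from 228 to 417 (median 284) on the acetate arrays, against 337 to 741 (median 627) on the control arrays.

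Some lists had few members in the shared response, which held 8.27% of all genes, and whether their counts differ from that share was not tested. Hypoxia targets had a list median of -0.212 in Th17 cultures, 1.57 in Treg cultures and -1.14 in Th1 cultures, and glycolysis genes of 0.0213 in Th17 cultures, 0.791 in Treg cultures and -0.266 in Th1 cultures. Of 14 hypoxia genes 1 was called in each direction, and of 16 glycolysis genes 4 higher and 1 lower, with 0 of either list in the shared response. For all genes the called shares were 9.06% higher and 7.4% lower. The count of hypoxia genes higher was 4 without Th1 acetate array 2 and 0 without Treg control array 1, and the count lower ran from 0 to 2 where single arrays were left out. The 4 glycolysis genes became 2 without Th17 control array 1, Treg acetate array 1, either Treg control array, Th1 acetate array 1 or Th1 control array 1. Sterol synthesis had 9 of 22 genes called higher and 1 lower, with Mvk alone shared. The 9 became 5 without Treg acetate array 1, 3 without quantile normalization, and 2 without the Th17 or the Treg arrays. Of 45 cell cycle genes 8 were called higher and 1 lower, with 1 shared, and the 8 became 3 or 4 without either Treg acetate array, Treg control array 2, Th1 acetate array 2 or Th1 control array 1.

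The remaining lists are given beside shares of 9.06% called higher and 7.4% called lower among all genes, and counts of 1 or 2 in a short list are near those shares. Of 9 tubulins 4 were called higher and 0 lower, of 15 integrins and adhesion genes 1 higher and 5 lower, of 12 genes of the interleukin 2 receptor and STAT5 feedback 2 higher and 5 lower (3 lower without quantile normalization), and of 10 inhibitory receptor and adenosine genes 3 higher and 1 lower. Myc and ribosome biogenesis genes had 0 of 21 called higher and 4 lower (7 without Th1 acetate array 2), and autophagy and FOXO targets 0 of 17 higher and 2 lower (8 lower without Th1 acetate array 1). Of 18 clock genes 1 was called higher and 4 lower, the latter count 2 without Th17 control array 2 or 3, Treg acetate array 2 or either Treg control array. Of 15 TGF-beta pathway genes 1 was called higher and 3 lower, and the 3 became 1 without any 1 of 10 arrays. Of 10 serpins 3 were called higher and 0 lower, and the 3 became 1 without Treg acetate array 2 or Treg control array 2. Of 15 eicosanoid genes 2 were called higher and 1 lower, which is near the shares of all genes, and the 1 histone gene measured did not pass.

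All 9 CD4 T cell markers measured exceeded the median probe set level on some array, a level that is not a detection threshold. Their summed signal was 10500 to 14660 on acetate arrays, against 15570 to 20990 on control arrays, which do not overlap. Of the 9, 7 were called lower and 0 higher, against 7.4% and 9.06% of all genes. The shared response held 4, among them Cd3g (-0.70 ± 0.11, SE, adjusted p = 0.000831) and Cd5 (-0.85 ± 0.13, SE, adjusted p = 0.000639). The 7 became 4 without Treg control array 2 and without quantile normalization. The part of this shift in the other results was not tested.

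Markers of other cells were summed in the same way. The sum of 6 neutrophil markers was 81.8 to 178 on acetate arrays and 23.4 to 51.7 on control arrays, of which Prtn3 was the member that rose (3.1 ± 0.30, SE), while the defining S100a8 and S100a9 stayed under the median level on all arrays. For 7 dendritic cell markers the sum was 289 to 2097 with acetate and 417 to 668 in controls, with Cd74 (1.13) and H2-Ab1 (1.03) called higher and Xcr1 and Siglech under the median level. Neither Cd74 nor H2-Ab1 was in the shared response. The median of the 7 was 0.642 in Th17 cultures, 1.02 in Treg cultures and -0.0866 in Th1 cultures. Cd74 lost its call without the Th17 arrays (adjusted p = 0.21) and H2-Ab1 without the Treg arrays (adjusted p = 0.7). For 6 B cell markers the sum was 122 to 1649 with acetate and 590 to 2836 in controls, with Ighm the single member above a signal of 100 on any array and Ms4a1 under the median level. Ighm was called lower and was in the shared response (adjusted p = 0.000139), but was not called with probe sets averaged (adjusted p = 0.24). For 8 macrophage markers the sum was 135 to 248 with acetate and 87.1 to 177 in controls, with Cd68 called higher (1.09) and Cd14 and Itgam under the median level. For 4 NK cell markers it was 1169 to 6714 with acetate and 523 to 3751 in controls, with Klre1 in the shared response (1.71) and Ncr1 under that level. For 3 plasma cell markers it was 55.4 to 362 with acetate and 30.1 to 115 in controls, where Prdm1 and Sdc1, which activated T cells can also express, rose by 1.37 and 1.08. Sums of 2 CD8 T cell markers were 60.7 to 332 with acetate and 37.6 to 217 in controls, with Cd8b1 called higher (1.18). Those of gamma delta T, mast or basophil, erythroid and stromal markers overlapped between acetate and control arrays. Of 8 stromal markers, with a median of -0.0364, Lum (1.29) and Pdgfrb (1.18) were called higher, Pdgfrb in the shared response. Pdgfrb was dim, at 4.35 to 13.5 with acetate and 0.132 to 3.89 in controls. Lum lost its call without the Th17 arrays (adjusted p = 0.78), and Col1a1, Col3a1 and Vwf stayed under the median level. The mast cell marker Kit was a shared fall (adjusted p = 0.0154), not called with probe sets averaged (adjusted p = 0.1). The part of these in the results was not tested.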

How the data were processed

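Each array came with 1 linear signal intensity per probe set as the authors deposited it, which MAS5 produced per the submitters' processing notes; the MAS5 version and scaling target were not given in the sources used here. The array type is named as an Affymetrix mouse GeneChip by the labels of the Treg and Th1 samples. No detection calls entered the work, so a probe set could be tested whether or not it exceeded background. Precision is limited by how many arrays there are.

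Of 45101 probe sets, 34958 carried exactly 1 gene symbol in the platform annotation, 932 several and 9211 none. After 13 array controls among the first were left out, 34945 were tested. A lookup of Entrez identifiers among RefSeq genes found 34741 of them and changed 0 symbols. Signals were transformed as log2(signal + 3), where 25.4% of the deposited values are at or under 3, and quantile normalized. Printed signals are back-transformed. limma 3.58.1 (R 4.3.3) fitted 6 group means to all 14 arrays, with eBayes using a trend and 8 residual degrees of freedom, and the contrast weighted the 3 subsets equally. Adjustment of limma's p-values followed Benjamini and Hochberg over all probe sets tested, and every adjusted p in the text is of this kind. For each of 18193 genes the values are those of the probe set whose mean log2 value was highest. Among 10 called genes, 5 of them in the shared response, another probe set was called in the opposite direction. Of the 908 shared genes with several probe sets, 437 had another one called in the same direction. With the probe sets of a gene averaged, 549 of the 798 shared higher genes and 443 of the 707 shared lower genes stayed in the shared response. Data were also simulated, with 34945 probe sets fitted. For each size of change, 100 probe sets at or above the median level were changed equally in all 3 subsets. Of log2 changes of 1, 71% were called and of those of 2, 100%, and 5.52% of calls were false. The simulated noise was normal and independent between arrays. These rates therefore do not extend to dim genes, to effects that differ between subsets or to a batch.

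Named genes were the 15 largest shared differences in each direction with the higher arm at or above the 50th percentile of probe set means (a normalised signal of 13.1), Mt3 and Klf2, up to 4 called members of each list with the largest differences, and a fixed set of lineage, zinc and acetate genes; genes named outside this rule are members of the lists or were singled out after their values were seen. The comparison, the genes and the 52 lists were chosen with earlier results of these data known. Promoter sequences are from a RefSeq table, which held 140 of 179 named genes. Scan dates and batches are not in the labels; a batch that ran along with treatment cannot be told apart from it. Alternatives tried were the normalization, the pseudocount, a filter on low values, averaged probe sets, an additive model, eBayes without a trend, a replicate block, and leaving out each subset and each array; where that left 1 array in a group, its spread was taken to be that of the remaining groups.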

Additional observations from a re-analysis of the deposited data

Results flagged for a closer look

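A test of the difference between the 3 acetate effects (limma's F test, adjusted over all probe sets) set apart 10 of the genes named by the rule; values are log2 differences. In 4 of them the direction was shared by all arrays of every subset. Pdlim4 (adjusted p = 0.0386) had 5.37 in Th17 cultures, 0.99 in Treg cultures and 2.88 in Th1 cultures, and Ccl9 (adjusted p = 0.0487) had 1.42 in Th17 cultures, 2.53 in Treg cultures and 6.13 in Th1 cultures. Gsn (adjusted p = 0.0331) had 2.70 in Th17 cultures, 1.74 in Treg cultures and 1.10 in Th1 cultures. Cd9, a tetraspanin (adjusted p = 0.033), had 2.19 in Th17 cultures, 0.31 in Treg cultures and 1.40 in Th1 cultures.

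The other 6 were not in the shared response. Il24, a cytokine of the interleukin 10 family (adjusted p = 0.00134), had 1.73 in Th17 cultures, 6.30 in Treg cultures and -0.21 in Th1 cultures. Hlx, a homeobox factor of Th1 cells (adjusted p = 0.047), had 1.88 in Th17 cultures, 4.18 in Treg cultures and -0.12 in Th1 cultures. Bsg, the basigin that escorts monocarboxylate transporters (adjusted p = 0.033), had 1.12 in Th17 cultures, 1.87 in Treg cultures and -0.26 in Th1 cultures. The glycolysis genes were Hk2 (adjusted p = 0.0331) with 0.08 in Th17 cultures, 2.05 in Treg cultures and 1.04 in Th1 cultures, Pgam1 (adjusted p = 0.0373) with 0.39 in Th17 cultures, 1.56 in Treg cultures and -0.18 in Th1 cultures, and Pfkl (adjusted p = 0.047) with -1.05 in Th17 cultures, 0.77 in Treg cultures and -1.24 in Th1 cultures.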

How the results depend on the processing

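Counts of genes called higher, called lower, shared higher and shared lower were 1649, 1346, 798 and 707. They moved by over 1.5 times in these cases. Without quantile normalization 803 were called higher, 333 were shared higher and 433 shared lower, while 957 called lower was within 1.5 times. Without the Th17 arrays the counts were 502, 503, 440 and 464, without the Treg arrays 733 and 586 were called, and without the Th1 arrays the shared response held 1427 and 1130. A shared response over fewer subsets asks for fewer separations, and a fit without a subset has fewer arrays; the cause of the change without quantile normalization was not tested. Leaving out single arrays gave 1209 to 1674 called higher, 972 to 1476 called lower, 707 to 1029 shared higher and 636 to 835 shared lower. Of the 1505 shared genes, 1203 stayed called without any single array, 1061 without quantile normalization and 605 without any single subset, and 0 changed direction under another scaling. List counts moved both ways without a whole subset. Without the Th1 arrays cell cycle genes called higher went to 14 and Myc and ribosome biogenesis genes called lower to 11. Without the Th17 arrays citric acid cycle genes called higher went to 6, lysosomal genes called higher to 6 and actin genes called higher to 5. Genes called lower then went to 5 for naive cells, 3 for ATF4, 2 for amino acid transport and 2 for acetylation enzymes. Without the Treg arrays, metallothionein and zinc genes called higher went to 3. Genes called lower then went to 5 for naive cells, 5 for amino acid transport, 3 for Gimap and 3 for interferon genes. Further lists moved as well.

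Of the named genes' values, 6 changed sign, in genes not called or not shared. Lta4h was -0.24 with probe sets averaged, Acss2 -0.0019 without the Th17 arrays, and Ffar2 -0.0799 and Slc16a3 -0.0626 without the Treg arrays. Il2 was -0.24 without the Th1 arrays and -0.47 without Th1 control array 2, within a range of -0.47 to 0.91 over omissions of single arrays. Of the others, 4221 kept their side of the threshold, 392 lost a call and 8 gained one. With the replicate number as a block the counts were 1429, 1126, 715 and 642. Deviations of same-numbered arrays correlated at 0.149, 0.16 and -0.119 in Th17 cultures, 0.0651 in Treg cultures and -0.156 in Th1 cultures. Th17 acetate arrays 1 and 2 correlated best with the control array of their own number, and Th17 acetate array 3 did not. Groups of 2 arrays give 1 value per subset and no other number to compare with. These values do not settle whether same-numbered arrays are paired. With 2 arrays a group in Treg and Th1 cultures, and no detection calls, small changes of dim genes are the least certain.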
